A study of Homo sapiens with 9 samples.

Results

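The cytosolic ribosomal protein rows are the rows of the deposited count table whose gene name follows the RPL, RPS, RPLP0 to RPLP2 or RPSA nomenclature, with the RPS6K kinase names and the pseudogene names left out. The rule reads names and no measured value. It found 86 of 26008 rows, carrying 80 distinct names, of which 48 rows belong to the large subunit (RPL and RPLP) and 38 to the small subunit (RPS and RPSA). RPS18 names 6 rows, 5 of them without a count. The rows named RPL10L, RPL39L, RPS4Y1 and RPS4Y2 are among the others that held no count. In all, 75 rows had at least 1 count, and 41 of them passed the low-count filter and were tested.

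The study exposed HCT8 cells, an established human epithelial line from an ileocecal colorectal adenocarcinoma, to membrane vesicles, small particles that bacteria shed from their surface. The groups were HCT8 cells given vesicles of Vibrio cholerae C6706 for 5 h, HCT8 cells given vesicles of Escherichia coli MC1061 for 5 h, and HCT8 control cells. The labels describe the controls as having no treatment, and the protocol gives them as receiving 20 mM Tris-HCl. Polyadenylated RNA of 3 libraries per group was sequenced as single reads of 50 nt. All 9 libraries come from 1 cell line, and nothing in the labels says whether the replicates of a group were grown separately. The p-values therefore reflect only how these libraries vary, which may be technical variation.

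Cytosolic ribosomal proteins assemble with ribosomal RNA into the large and small subunits of the ribosome, which together translate messenger RNA. Their messenger RNAs are usually among the most abundant polyadenylated transcripts of dividing cells, and cells tend to adjust them together. Most of these messengers begin at a C followed by a run of pyrimidines, the 5′ terminal oligopyrimidine motif, through which mTOR signalling controls their translation.

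The start windows of 8 members are shown because most of them carry that shared feature and because the results below turn on these rows. Each has 15 bases before and 15 bases from the annotated start of the gene (RefSeq, GRCh38.p14), 5′ to 3′ on the gene's own strand. Capitals mark an unbroken run of C and T that begins with a C at the start itself and holds at least 5 bases.
RPLP0, chr12:120201097-120201126, minus strand: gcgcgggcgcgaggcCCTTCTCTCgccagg
RPL9, chr4:39458908-39458937, minus strand: gtacgtaatgacgacagacgttctttcttt
RPL10, chrX:154398362-154398391, plus strand: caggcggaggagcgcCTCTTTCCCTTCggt
RPS25, chr11:119018329-119018358, minus strand: tctgagcagcgcttcCTTTTTgtccgacat
RPL27A, chr11:8682777-8682806, plus strand: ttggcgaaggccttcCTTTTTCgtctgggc
RPL11, chr1:23691791-23691820, plus strand: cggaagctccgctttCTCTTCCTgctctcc
RPL21, chr13:27251543-27251572, plus strand: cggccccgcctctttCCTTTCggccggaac
RPL35, chr9:124861943-124861972, minus strand: agccccgcctacttcCTCTTTCCCTCggag

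Of the 8 windows, 7 hold the run at the listed start, and the window of RPL9 does not. Such a run was present at the listed start of 44 of the 63 members that the RefSeq table held, or 69.8%, against 5.14% of 27305 genes and 6.24% of 15842 protein-coding genes in the same table. Only the gene's own strand was searched. Where the table lists several starts for a gene, a run at any of them counted, and a start with the run was the one printed (RPL10 has 3 listed starts and RPL11 has 2). A match describes these letters and is not evidence of translational control in these cells.

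The smallest library (control replicate 1) held 363557 counts and the largest (V. cholerae replicate 3) 733412. CPM below are counts per 1000000, relative to the library's counts in the tested rows multiplied by its TMM factor. On this scale 3 counts are worth 3.88 to 9.07 CPM, depending on the library. All 5 epithelial marker rows fixed for the line held counts, namely KRT8 86632, KRT18 655, EPCAM 90, KRT19 76 and CDH1 32. Among 8 rows for fibroblast, leukocyte and endothelial markers, CD14 held 95 counts, PECAM1 62 and COL1A1 1, and the others were at 0. The EPCAM, KRT19 and CDH1 rows thus held fewer counts than the CD14 row. Replicate 3 of each group stood apart from replicates 1 and 2, with TMM factors of 1.13 against 0.894 to 0.965, and its part in the results below is given beside them.

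The 86 rows together held 11620 of 3957090 counts, or 0.294%. The median row with a count held 90 counts over all 9 libraries, that is, about 10 per library. The 34 rows that held counts but were not tested had at most 72, and the lowest tested row had 74. RPL10, a large subunit protein that is added late in 60S assembly, led with 1284 counts, or 11.05% of the members' total. RPS25, a small subunit protein that several viral internal ribosome entry sites depend on, followed with 897. The next 8 rows were RPL27A (426), RPS2 (412), RPL31 (370), RPL7A (341), RPL19 (330), RPS24 (319), RPL14 (289) and RPL41 (282). These 10 rows carried 42.6% of the members' counts. Per kilobase of transcript, RPS25 came first with 1074.25 counts, RPL10 next with 1000 and then RPL41, which encodes a very short basic peptide, with 601.

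**Figure D1:**
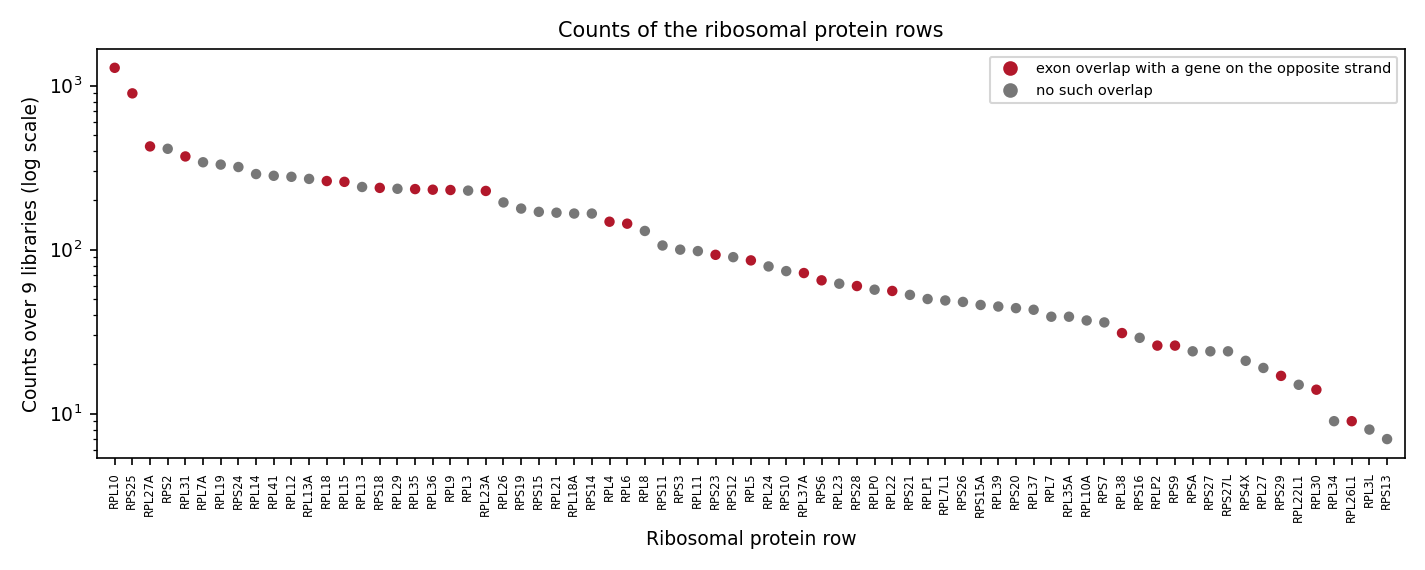
Counts over the 9 libraries (log axis) for 73 of the 75 ribosomal protein rows with at least 1 count, ordered by count and coloured by whether an exon of another gene lies on the opposite strand. RPL10 (1284) and RPS25 (897) stand above the rest, RPLP0 holds 57, and both colours occur along the whole range.

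The stalk rows were low. RPLP0, which anchors the stalk that recruits elongation factors and is a common reference transcript, held 57 counts in all. They were 10, 4 and 7 in control replicates 1, 2 and 3, 8, 6 and 12 in the V. cholerae replicates, and 2, 3 and 5 in the E. coli replicates. As CPM this was 18.4 ± 10.4 (SD, n = 3) in controls, 18.8 ± 4.04 with V. cholerae vesicles and 8.51 ± 2.66 with E. coli vesicles. The control libraries overlapped both vesicle groups. All 3 E. coli libraries lay below all 3 V. cholerae libraries, but counts this small fell under the filter and were not tested. Of all rows tested, 7.8% separated in this direction, and no share over untested rows was computed. RPLP1 and RPLP2, the acidic stalk proteins, held at most 7 and 5 counts in any library, and RPSA, also known as the laminin receptor, at most 4.

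Added up per library, the ribosomal protein rows did not separate the groups. The sum was 3240, 3612 and 2714 CPM in control replicates 1, 2 and 3. It was 3310, 3216 and 2189 CPM in the V. cholerae replicates. It was 3992, 4322 and 2340 CPM in the E. coli replicates. Replicate 3 was the lowest library of each group, E. coli replicates 1 and 2 were the highest of all 9, and the 3 groups overlapped. The group means were 3189 ± 451 (SD, n = 3) in controls, 2905 ± 622 with V. cholerae vesicles and 3552 ± 1062 with E. coli vesicles. The E. coli sum was 1.23-fold the control sum in replicate 1, 1.20-fold in replicate 2 and 0.862-fold in replicate 3. The V. cholerae sum was 1.02-fold, 0.890-fold and 0.806-fold the control sum in the same order. Only replicate 3 was set apart in the correlations between libraries, so equal numbers do not show that replicates 1 and 2 were paired. As a share of a library's counts, the members took 0.231% (V. cholerae replicate 3) to 0.369% (E. coli replicate 2).

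**Figure D2:**
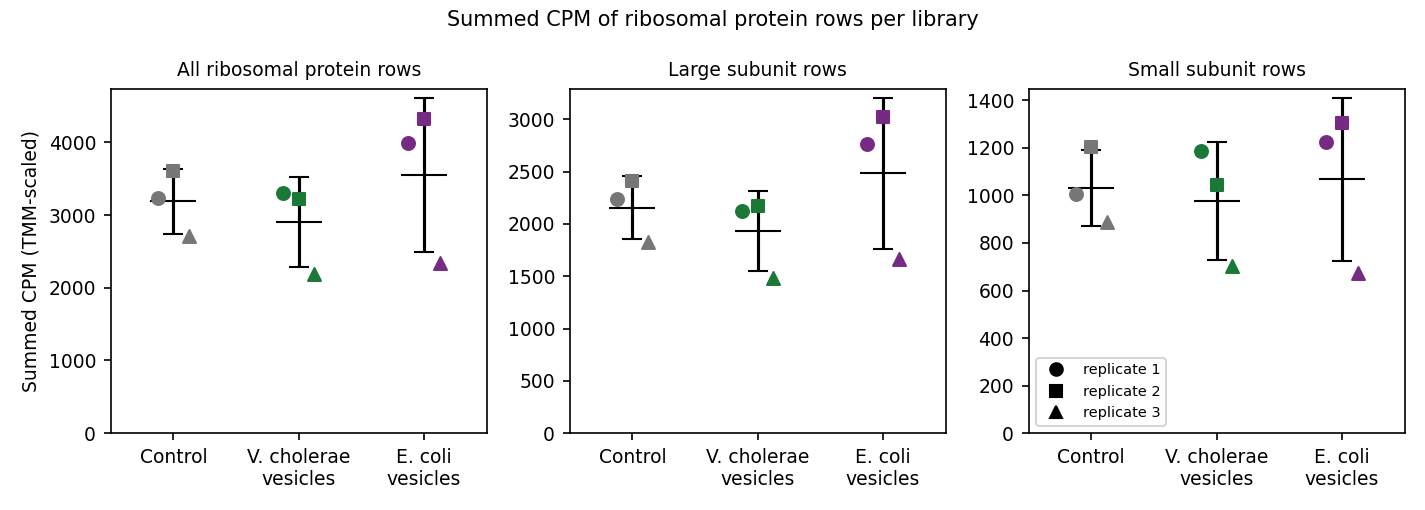
Summed CPM of all ribosomal protein rows, of the large subunit rows and of the small subunit rows, with 1 symbol per library and bars for the mean ± SD of 3 libraries. Replicate 3 is the lowest library of every group in all 3 panels, and E. coli replicates 1 and 2 are the highest.

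Both subunits showed the same order. The large subunit rows summed to 2156 ± 299 CPM in controls, 1928 ± 383 with V. cholerae vesicles and 2484 ± 719 with E. coli vesicles (SD, n = 3 each). The small subunit rows summed to 1033 ± 160, 977 ± 248 and 1068 ± 343 CPM. In each case the difference between group means was smaller than the SD of the group with the widest spread.

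With V. cholerae vesicles, none of the 41 tested ribosomal protein rows passed the test against the controls. EdgeR's quasi-likelihood test called 0 of 41 rows, against 0.0544% of all 3679 rows tested (2 rows), and 0 of the 41 were below 0.05 before adjustment, beside 2.72% of all rows. The other tools, DESeq2 and limma voom, also called 0. Every tested member had a Benjamini-Hochberg adjusted p of 0.9995 in edgeR. The log2 fold changes ran from -0.89 to 0.72. Of the 41 rows, 34 had a value below 0 and 7 above it, with a median of -0.25, beside 0.01 over all rows tested. It moved with single libraries. Without V. cholerae replicate 3 there were 23 below and 20 above with a median of -0.02, and without control replicate 2 there were 24 below and 18 above with a median of -0.06. Without V. cholerae replicate 1 or control replicate 3 the median was -0.44 or -0.41.

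The lowest value belonged to RPL4, whose protein lines part of the exit tunnel for the growing peptide. Its row stood at 60.5, 63.1 and 31.9 CPM in control replicates 1, 2 and 3, and at 29.1, 40.8 and 16.8 CPM in the V. cholerae replicates. Each V. cholerae library was below the control library of the same number, but the groups overlapped, with a log2 fold change of -0.89 ± 0.46 (SE). RPL26 and RPL35, both near the tunnel exit, had -0.73 ± 0.41 and -0.69 ± 0.40. Among the top values, RPS15, whose tail reaches towards the decoding site, had 0.72 ± 0.49, RPS10, which is ubiquitinated on stalled ribosomes, had 0.50 ± 0.59, and RPL9 had 0.41 ± 0.49.

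Of the 41 tested members, 2 had V. cholerae libraries that all lay below all control libraries, RPL26 and RPS24, against 3.64% of all rows, and 0 had them all above, against 4.92%. RPL26 was at 66.5, 57.6 and 71.7 CPM in controls and 55.3, 43.7 and 24.6 with V. cholerae vesicles. RPS24, a small subunit protein mutated in some cases of Diamond-Blackfan anaemia, was at 96.7, 112 and 97.6 CPM in controls and 78.6, 70.0 and 46.5 with V. cholerae vesicles. For both rows replicate 3 was the lowest V. cholerae library. Among the 34 untested members with counts, the V. cholerae libraries were all above the controls in RPS15A, RPL23, RPL10A and RPL7L1, with at most 15 counts in a library, and all below in RPS16 and RPL7, with at most 7. These 6 are named after their values were seen, and no share over all untested rows was computed to set beside them.

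With E. coli vesicles, compared with the same 3 control libraries, the members' values were centred near 0, and a few large subunit rows had the highest. EdgeR's quasi-likelihood test called 0 of 41 rows, against 0.19% of all rows tested (7 of 3679), and 4 of the 41 were below 0.05 before adjustment, or 9.76%, beside 11.3% of all rows. The other tools, DESeq2 and limma voom, called 0 members. There were 25 values above 0 and 16 below, with a median of 0.09, beside -0.01 over all rows. With library size alone as the scaling there were 21 above 0 and 20 below, with a median of 0.01. Without E. coli replicate 2, control replicate 3 or E. coli replicate 1 the median was -0.069, -0.045 or -0.0039, and without E. coli replicate 3 or control replicate 2 it was 0.33 or 0.23.

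RPL9, a large subunit protein near the site where elongation factors bind, had the highest value. Its row held 7, 24 and 14 counts in control replicates 1, 2 and 3, then 14, 29 and 25 in the V. cholerae replicates and 48, 43 and 27 in the E. coli replicates. These were 21.2, 65.8 and 27.9 CPM in controls, 40.8, 84.6 and 32.3 with V. cholerae vesicles and 139, 124 and 59.9 with E. coli vesicles. E. coli replicates 1 and 2 were above every other library, while E. coli replicate 3 lay below control replicate 2. The means were 38.3 ± 24.1 CPM (SD, n = 3) in controls and 108 ± 41.9 with E. coli vesicles. The log2 fold change was 1.48 ± 0.47 (SE), with an adjusted p of 0.243 in edgeR's quasi-likelihood test.

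Whether RPL9 was called depended on the fit. With a replicate block the log2 fold change was 1.48 ± 0.32 and the edgeR adjusted p was 0.0238. RPL9 was the only 1 of 41 members called by that fit, against 2.28% of all rows (84 of 3679). The block treats equal replicate numbers as belonging together, though only replicate 3 was set apart in the residual correlations. In the blocked fit the call was lost without control replicate 1 (edgeR adjusted p 0.231), control replicate 2 (0.144), V. cholerae replicate 1 (0.0503) or E. coli replicate 1 (0.259). Without the block it was called when E. coli replicate 3 was left out, with a log2 fold change of 1.78 and an edgeR adjusted p of 0.0268, as the single member of 43 called, against 6.08% of all rows. It was also called in replicates 1 and 2 alone, with 1.56 and an edgeR adjusted p of 0.00123, where 24.4% of all rows were called. An exon of LIAS lies opposite the 5′ end of RPL9, and the LIAS row held 37 counts against 231 for RPL9.

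**Figure D3:**
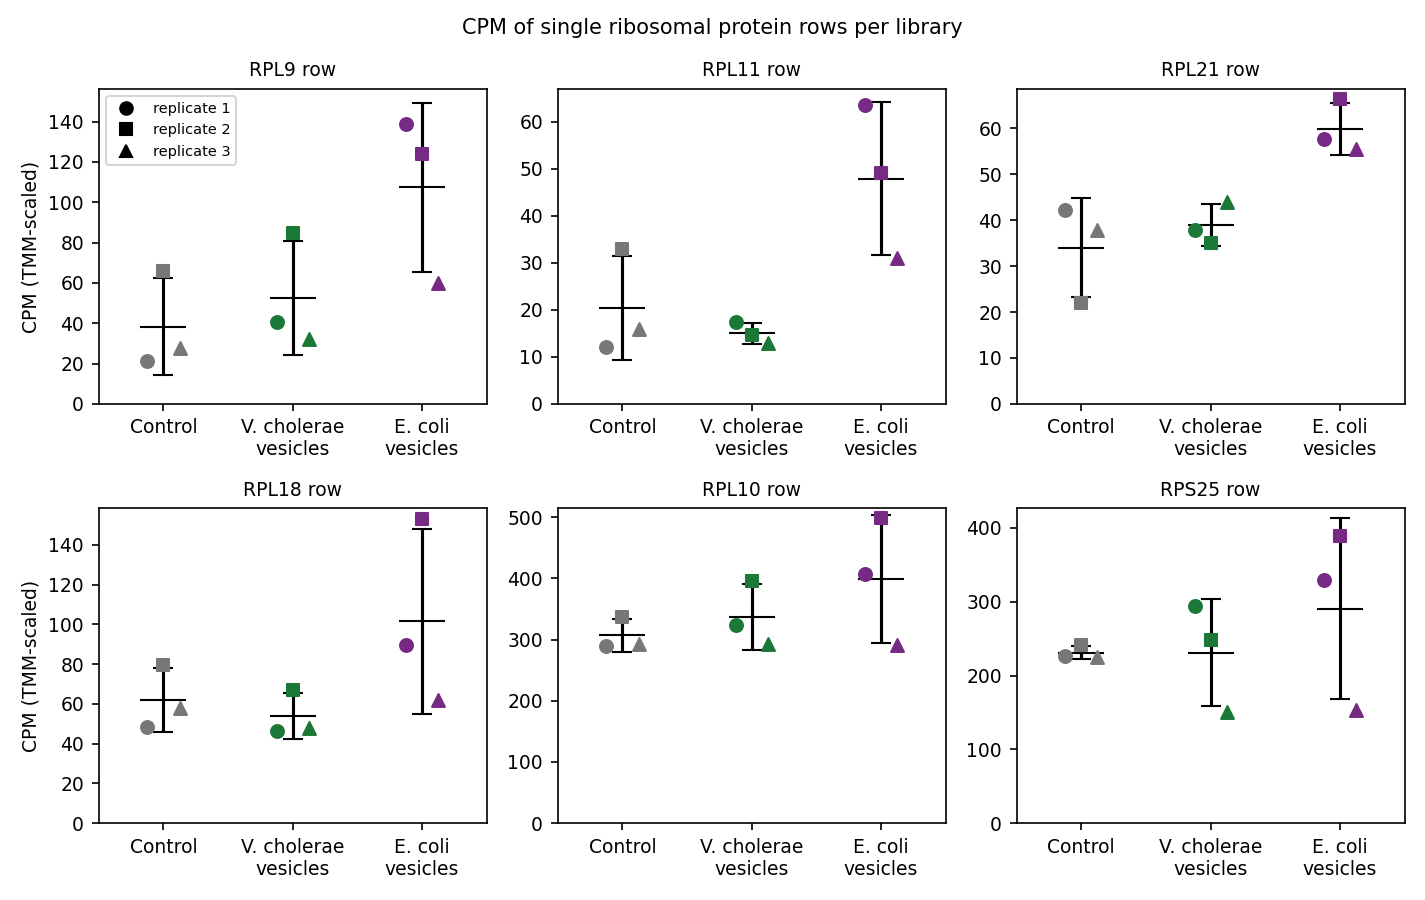
CPM of 6 ribosomal protein rows, with 1 symbol per library and bars for the mean ± SD of 3 libraries, each panel on its own axis from 0. The RPL9 and RPL11 rows are highest in E. coli replicates 1 and 2, and the 3 E. coli libraries of RPL21 lie above all others.

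RPL11, which together with RPL5 and 5S ribosomal RNA can bind MDM2 and restrain p53 degradation, came next. Its row was at 12.1, 32.9 and 15.9 CPM in controls, 17.5, 14.6 and 12.9 with V. cholerae vesicles and 63.6, 49.0 and 31.1 with E. coli vesicles. The lowest E. coli library lay just below the highest control. The log2 fold change against controls was 1.22 ± 0.45 (SE), with an adjusted p of 0.305 in edgeR. The row rests on 4 to 22 counts per library.

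RPL21, a large subunit protein, was the single one of the 41 tested members with all E. coli libraries above all controls, against 5.82% of all rows. In 1 tested member all E. coli libraries lay below all controls, against 8.7% of all rows. Among the untested members, the E. coli libraries were all above in RPL35A and RPL26L1, with at most 10 counts in a library. In RPS9 they were all below, with at most 6. These untested rows are named after their values were seen. For these, too, no share over all untested rows was computed. RPL21 was at 42.3, 21.9 and 37.8 CPM in controls and 57.8, 66.4 and 55.5 with E. coli vesicles, with a log2 fold change of 0.80 ± 0.35 and an edgeR adjusted p of 0.395. Among the lowest values were those of RPS2 and RPL23A, at -0.56 ± 0.34 and -0.48 ± 0.46.

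The 2 members with the most counts gave the same picture. RPL10 was at 290, 337 and 293 CPM in controls, 323, 397 and 292 with V. cholerae vesicles and 407, 499 and 291 with E. coli vesicles. RPS25 was at 227, 241 and 225 CPM in controls, 294, 248 and 151 with V. cholerae vesicles and 329, 390 and 153 with E. coli vesicles. In both rows E. coli replicates 1 and 2 stood highest and E. coli replicate 3 was level with or below the controls. The log2 fold changes of E. coli against control were 0.38 ± 0.25 for RPL10 and 0.32 ± 0.32 for RPS25, with adjusted p-values of 0.629 and 0.793 in edgeR.

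Between the 2 vesicle types, most members had lower values with V. cholerae than with E. coli vesicles, but none passed the test. EdgeR's quasi-likelihood test called 0 of 41 members, and 0 of 3679 rows (0%), with 3 members below 0.05 before adjustment, or 7.32%, beside 9.05% of all rows. The other tools called 0 members, and over all rows DESeq2 called 5 and limma voom 0. Of the 41 values, 34 were below 0 and 7 above, with a median log2 difference of -0.34, beside 0.02 over all rows. Without E. coli replicate 2 or V. cholerae replicate 3 the median was -0.12 or -0.17, with 30 and 28 of 43 values below 0, and without E. coli replicate 3 or V. cholerae replicate 1 it was -0.65 or -0.57. RPL11 had the lowest value, -1.67 ± 0.46 (SE), with an edgeR adjusted p of 0.318. Without E. coli replicate 3 it was -1.93 with an edgeR adjusted p of 0.0249, the single member of 43 called there, against 5.25% of all rows.

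RPL9 had -1.07 ± 0.45 and RPL18, a large subunit protein, -0.91 ± 0.37. RPL18 was at 46.6, 67.1 and 47.8 CPM with V. cholerae vesicles and 89.6, 153 and 62.1 with E. coli vesicles, so that the groups overlapped by 1 library. Among the highest values were 0.96 ± 0.62 for RPS10 and 0.40 ± 0.34 for RPS2. In 3 of the 41 tested members all V. cholerae libraries lay below all E. coli libraries (RPL24, RPL21 and RPL11), against 4.1% of all rows, and in 0 of them above, against 7.8%. RPL24, which reaches across to the small subunit and is named here after its values were seen, was at 20.4, 20.4 and 7.76 CPM against 23.1, 31.7 and 26.6. Among the untested members, RPL35A and RPL3L had all V. cholerae libraries below, with at most 10 counts in a library, and RPLP0, RPS15A and RPL10A had them all above, with at most 12. How often untested rows in general separate in this way was not computed.

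**Figure D4:**
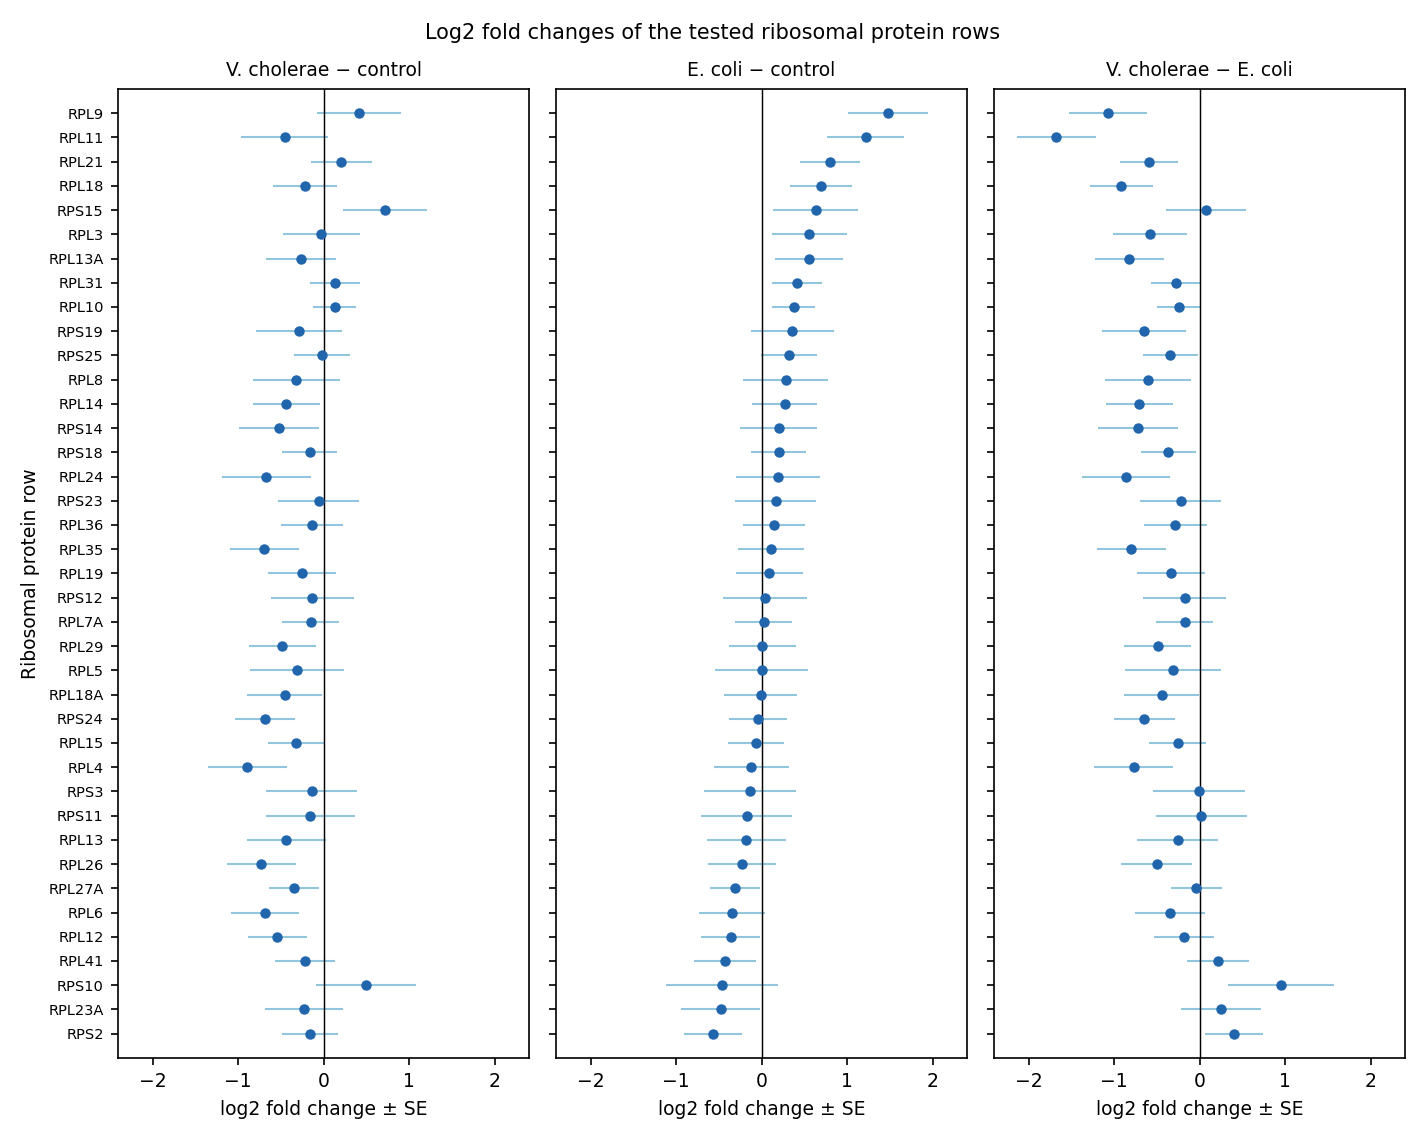
Log2 fold changes (points) with their SE (bars) of 39 of the 41 tested ribosomal protein rows in the 3 comparisons, in the order of the E. coli against control values. Over all 41, values below 0 make up 34 of 41 for V. cholerae against control, 16 for E. coli against control and 34 for V. cholerae against E. coli, and the 2 comparisons with controls share the control libraries.

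Replicate 3 carried a different pattern from replicates 1 and 2. Among the tested members its CPM was below both other replicates in 25 of 41 rows in controls, in 33 with V. cholerae vesicles and in 34 with E. coli vesicles. Over all rows tested these shares were 37.9%, 39.9% and 33.3%. In 20 members replicate 3 was lowest in all 3 groups, among them RPS25, RPS2, RPL27A and RPL7A, against 17.9% of all rows. RPL12, which binds at the base of the stalk, was the single member with replicate 3 highest in all 3 groups, against 23.8% of all rows. It was at 78.6, 71.3 and 108 CPM in controls, 34.9, 55.4 and 81.5 with V. cholerae vesicles and 60.7, 57.7 and 82.1 with E. coli vesicles.

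Taken apart, the replicates gave E. coli against control values on different sides of 0. In replicates 1 and 2 fitted alone, 31 of 42 members lay above 0 with a median of 0.23, while in replicate 3, as the plain ratio of 2 libraries, 12 of 41 lay above 0 with a median of -0.16. Among the 40 members measured in both, 18 had the same sign. For V. cholerae against control, 34 of 42 members lay below 0 in replicates 1 and 2 (median -0.17) and 32 of 41 in replicate 3 (median -0.31). For V. cholerae against E. coli, 35 of 42 lay below 0 (median -0.41) and 27 of 41 (median -0.10). Over all rows close to 50% lay above 0 in each case.

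The fit on replicates 1 and 2 alone called more rows, of members and of all rows alike. For E. coli against control edgeR called 7 of 42 members, all higher (RPL11, RPS25, RPS15, RPL18, RPL9 and RPL10 among them), against 24.4% of all 3249 rows tested. For V. cholerae against E. coli it called 8 of 42, against 23.6% of all rows. Of these, RPS10 was higher with V. cholerae vesicles, and RPL11, RPS24, RPL13A, RPL18, RPL9, RPS14 and RPL35 were lower. For V. cholerae against control it called 0 of 42, against 1.88% of all rows, with 3 members below 0.05 before adjustment, or 7.14%, beside 11.8% of all rows, and DESeq2 and limma voom were not run on that subset. The 7 and 8 calls are no larger a share of the members than the calls over all rows.

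E. coli replicates 1 and 2 also differed from the other 7 libraries in a measure taken over all rows matched by name, the members included. For rows with a coding gene on the opposite strand, the counts of rows lying at least 3000 nt from that gene's 3′ end were 13.0% and 11.8% of the counts of rows within 500 nt in these 2 libraries, and 16.9% to 17.8% in the other 7. Rows with no opposite exon took 16.2% to 16.5% of counts in the 3 replicate 3 libraries and 12.4% to 13.8% in the others. The part of either difference in the members' values was not tested.

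The libraries were stranded, but none of the sources used here states the strand setting of the counting. Whether the reads in a row came from the ribosomal protein gene or from a gene on the opposite strand was not tested. The values given here therefore describe rows and not levels of the named messenger RNAs. An exon of another gene overlaps on the opposite strand in 31 of 86 members, or 36.0%, against 32.3% of 23293 rows matched by name. The members with such an exon held 49.5% of the members' counts, whereas rows with such an exon held 85.5% of all counts. The opposite gene had a row with counts in 21 pairs, which involve 19 members.

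In 8 of the 21 pairs the opposite row held more counts than the ribosomal protein row. Where the overlap reached the 3′ end of the ribosomal protein gene this was so in 5 of 7 pairs, with a median ratio of 11.8, and elsewhere in 3 of 14, with a median ratio of 0.255. The CCDC84 row, opposite the 3′ end of RPS25, held 10561 counts against 897. The WDR38 row, opposite the 3′ end of RPL35, held 6894 against 234. LONP1 opposite RPL36 held 1001 against 232, KANK3 opposite RPS28 held 836 against 60, and MGC16275 opposite RPL38 held 387 against 31. The exceptions were DNASE1L1 opposite RPL10, with 141 against 1284, and TLCD1 opposite RPL23A, with 67 against 228.

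**Figure D5:**
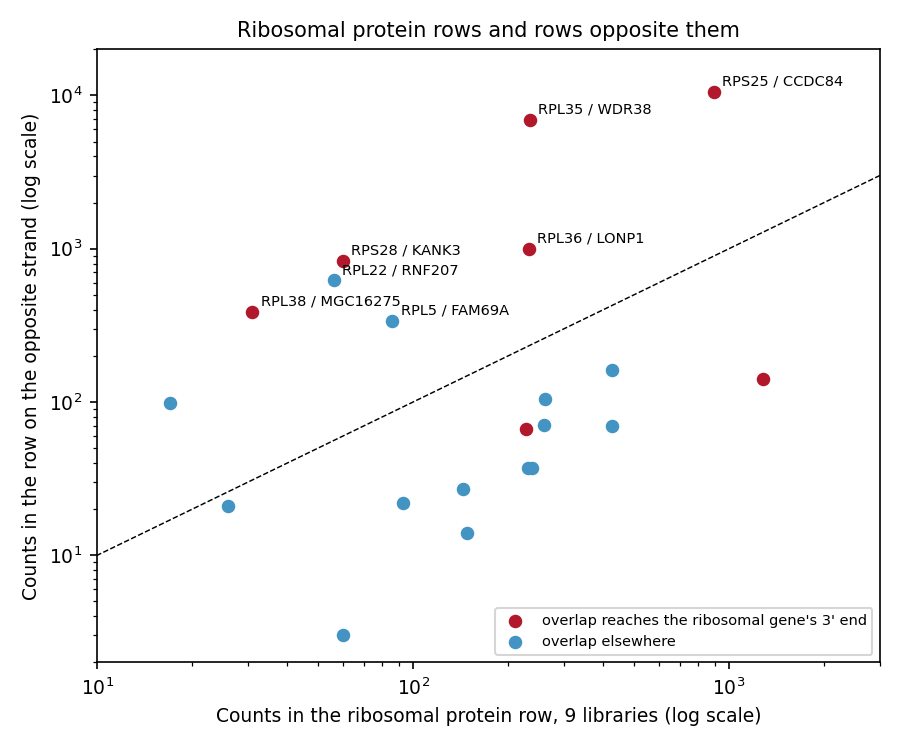
Counts over 9 libraries of the row on the opposite strand against those of the ribosomal protein row (both log axes) for 21 pairs, with a dashed line of equal counts. Of the 7 pairs whose overlap reaches the ribosomal gene's 3′ end, 5 lie above the line, led by RPS25 / CCDC84 and RPL35 / WDR38.

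The 2 largest opposite rows had a library pattern like that of the summed members. CCDC84 was at 3013, 2830 and 2172 CPM in controls, 2900, 2962 and 1848 with V. cholerae vesicles and 4024, 4937 and 1988 with E. coli vesicles. WDR38 was at 1838, 1980 and 1175 CPM, 1942, 1980 and 1182 CPM, and 2779, 3537 and 1167 CPM in the same order. Replicate 3 was the lowest library of every group in both rows, and E. coli replicates 1 and 2 were the highest of all. The E. coli against control log2 fold changes were 0.45 ± 0.30 (edgeR adjusted p = 0.634) for CCDC84 and 0.58 ± 0.34 (0.551) for WDR38. In replicates 1 and 2 alone they were 0.62 (edgeR adjusted p = 1.2e-05) and 0.73 (3.8e-06), in a fit that called 24.4% of all rows.

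The summed CPM had the same order of group means in members with and without an opposite exon. With one, the sums were 1511 ± 221 CPM in controls, 1456 ± 293 with V. cholerae vesicles and 1803 ± 554 with E. coli vesicles (SD, n = 3 each). Without one, they were 1677 ± 233, 1449 ± 336 and 1749 ± 509 CPM.

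Other parts of the translation machinery gave no calls. None of the following rows was called by edgeR in any of the 3 comparisons, with or without the replicate block. Shares called over all rows without the block were 0.0544% for V. cholerae against control and 0.19% for E. coli against control. Between the 2 vesicle types the share was 0%. With the block the shares were 0.353%, 2.28% and 0.0544% in the same order. Tested were 5 of 8 rows of elongation factors, 14 of 36 rows of initiation factors, 16 of 39 rows of ribosome biogenesis factors, 15 of 81 rows of mitochondrial ribosomal proteins, 1 of 15 small nucleolar RNA host genes and 3 of 18 rows of S6 kinases and the mTOR pathway. Below 0.05 before adjustment, where 11.3%, 2.72% and 9.05% of all rows stood in the comparisons below, were 1 initiation factor, 4 mitochondrial ribosomal proteins and 1 small nucleolar RNA host gene for E. coli against control, 1 mitochondrial ribosomal protein for V. cholerae against control, and 2 initiation factors, 1 biogenesis factor and 1 mitochondrial ribosomal protein for V. cholerae against E. coli. The medians for V. cholerae against control were -0.31 for elongation factors, -0.09 for initiation factors, -0.21 for biogenesis factors and -0.03 for mitochondrial ribosomal proteins, beside -0.25 for the cytosolic ribosomal proteins. For E. coli against control they were -0.13, 0.04, 0.02 and -0.14, beside 0.09.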

How the data were processed

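The deposited table holds raw whole-number counts per gene row, made by the authors from single 50 nt reads of TruSeq stranded mRNA libraries, per the labels' protocols. The build hg19 and the tools HTSeq 0.6.1, Cufflinks 2.2.1, SAMtools 0.1.19, Bowtie2 2.2.3 and TopHat2 2.0.12 are named, per the submitters' processing notes. None of the sources used here states the strand setting, the annotation, a filter or how reads mapping to several places were handled, and ribosomal protein genes have many pseudogene copies.

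Counts were tested with edgeR 4.0.16 in R 4.3.3: 1 robust quasi-likelihood fit took in the 9 libraries with group as its only term, after TMM scaling and filterByExpr with a minimum count of 10 and a minimum total of 15. Calls are rows whose p, adjusted by Benjamini-Hochberg over every row tested, is below 0.05. The SE is the unshrunken log2 fold change divided by the square root of F. Sums and medians over members carry no p. Alternatives used DESeq2 1.42.0, limma 3.58.1 voom, other scalings and filters, a replicate block and left-out libraries.

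The named members are RPLP0, RPL9, the 10 with the most counts, those called, and the 3 highest and 3 lowest log2 fold changes of each comparison. A few rows are counted in the totals but are not reported here by name. The members and lists were chosen with earlier results of these data known. Opposite-strand exons come from GENCODE 29 on GRCh38, matched by name, so no coordinates are given for them. Of the members' names, 63 matched the RefSeq start table.

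Residuals from the group means correlated between groups at 0.115 to 0.677 for all pairs with the same replicate number, all above the threshold of 0.1, so a replicate block was fitted. Replicate 1 of a group correlated with replicate 2 of another at 0.133 to 0.350, against 0.115 to 0.328 for the same numbers, and only replicate 3 was set apart (0.450 to 0.677 with itself, below 0 with the others). V. cholerae replicates 1 and 2 differed by little more than sampling noise (chi-square per degree of freedom 1.08, p = 0.0025) and were kept as 2 libraries. On simulated data for the V. cholerae comparison with 3679 rows, the test recovered 0 of 67 rows changed 1.5-fold, 21 of 67 changed 2-fold and 54 of 66 changed 4-fold, with 4 false calls.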

Additional observations from a re-analysis of the deposited data

How the results depend on the processing

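V. cholerae against control gave 0 members called in every alternative. For E. coli against control the members called were 1 with the replicate block, 7 in replicates 1 and 2 alone, and 0 to 1 when single libraries were left out (0 to 4 with the block kept). For V. cholerae against E. coli they were 8 in replicates 1 and 2 alone, and 0 to 1 without single libraries (0 to 8 with the block). Over all rows, the V. cholerae against control count of 2 became 5 with no filter, 13 with the replicate block, 4 with DESeq2, 0 with limma voom, 61 in replicates 1 and 2 alone, 1 with V. cholerae replicates 1 and 2 summed, 0 to 5 without single libraries and, with the block and single libraries left out, 4 to 77 (14 without control replicate 3 or V. cholerae replicate 3, 26 without E. coli replicate 2, 77 without E. coli replicate 3, 4, 5 or 10 otherwise). The E. coli against control count of 7 became 40, 84 and 22 with no filter, the replicate block and DESeq2, 793 in replicates 1 and 2 alone, 3 to 236 without single libraries (236 without E. coli replicate 3) and 3 to 817 with the block (97, 32, 55, 99, 37 and 817 without control replicate 3, V. cholerae replicates 1, 2 and 3, and E. coli replicates 2 and 3). The V. cholerae against E. coli count of 0 became 31 with no filter, 3 with a filter of 5 CPM, 1 with only the 2 groups, 2 with the replicate block, 5 with DESeq2, 766 in replicates 1 and 2 alone, 0 to 204 without single libraries (204 without E. coli replicate 3) and 0 to 747 with the block (39 without V. cholerae replicate 3, 747 without E. coli replicate 3). The cause was not tested. The block changed no other call of a named member than that of RPL9.

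The members' median log2 fold change ran over all alternatives from -0.44 to -0.02 for V. cholerae against control, from -0.07 to 0.33 for E. coli against control and from -0.65 to -0.12 for V. cholerae against E. coli. The log2 ratio of summed CPM ran from -0.24 to 0.03, from -0.01 to 0.38 and from -0.52 to -0.12. The highest E. coli values and the lowest V. cholerae against E. coli values of the medians were those without E. coli replicate 3. RPL9 for V. cholerae against control turned from 0.41 to -0.087 without V. cholerae replicate 2, with 1.03 without control replicate 2 as the highest value. With a median of about 10 counts per library, most members give little precision. In replicates 1 and 2 alone, RPL10 and RPS25, the rows with the most counts, were called by edgeR for E. coli against control. Their log2 fold changes were 0.53 and 0.62, and 24.4% of all rows were called there. The blocked fits without single libraries, the summed V. cholerae replicates and the split by opposite exon were chosen after seeing the data.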

Other observations

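Pseudogene rows of ribosomal proteins, left out of the members by name, numbered 28, of which 3 were tested and none was called by edgeR in any comparison. RPL23AP64, named here after its values were seen, held 453 counts, more than RPL23A itself with 228. It stood at 75.6, 107 and 197 CPM in control replicates 1, 2 and 3, at 78.6, 99.1 and 147 CPM with V. cholerae vesicles and at 37.6, 37.5 and 197 CPM with E. coli vesicles. Replicate 3 was the highest library of every group, where the RPL23A row had replicate 3 as the lowest. RPL23AP82 was at 109, 85.0 and 93.6 CPM in controls, 75.7, 61.2 and 86.6 with V. cholerae vesicles and 37.6, 23.1 and 79.9 with E. coli vesicles, and its 3 E. coli libraries all lay below the controls, as they did in 8.7% of all rows tested. It too is named after its values were seen. RPLP0P2 held 87 counts, against 57 for RPLP0. None of the sources used here states how reads shared by a pseudogene and its parent gene were assigned.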
